A study of Mus musculus with 6 samples.

Results

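STAT factors and the SOCS genes that restrain them were examined in CD4 T cells of WT mice and of mice with a T cell deletion of AMPKα1 (AMPK KO). The set was chosen by name, with earlier results of these data known, and holds 9 of the 23282 genes listed. These are the STAT factors Stat3, Stat4, Stat5a, Stat5b and Stat6, and the feedback genes Socs1, Socs2, Socs3 and Cish. All 9 were listed and all 9 passed the filter on low values. STAT proteins are transcription factors that wait in the cytoplasm, are phosphorylated by Janus kinases on an occupied cytokine receptor, and then enter the nucleus as dimers. Among the genes they switch on are the SOCS genes, whose products bind the receptor or the kinase and damp the same signal. In CD4 T cells, STAT4 acts downstream of IL-12 and STAT6 downstream of IL-4, STAT3 downstream of IL-6 and IL-21, and the paired factors STAT5A and STAT5B downstream of IL-2 and IL-7.

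Sequencing covered CD4 T cells from spleen and lymph nodes of C57BL/6 mice, with 3 WT and 3 AMPK KO samples. WT mice carried floxed Prkaa1 (Prkaa1fl/fl) without Cre, and AMPK KO mice carried the same floxed gene with CD4Cre, which deletes Prkaa1, the gene of AMPKα1, in cells that have expressed CD4. Cells of both groups rested for 1 h in RPMI-1640 and were then stimulated with anti-CD3 and anti-CD28, each at 2 µg/mL. The sample labels give 24 h of stimulation and the methods of the study give 6 h. The mice of the study are described as females of 6 to 8 weeks, but Y-linked transcripts were present in all 6 libraries, as given below. The study calls the samples of a group biologically independent, and the labels do not say whether each came from a different animal. QuantSeq libraries read the 3′ ends of transcripts, so a value below is log2(normalized value + 1) of 3′-end reads and is not divided by gene length. A difference is AMPK KO minus WT on that log2 scale, tested with limma and adjusted by Benjamini-Hochberg over 11279 genes (mean value 1 or more), with a threshold of 0.05.

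The libraries also differed outside the STAT and SOCS genes. Reads on genes numbered 9575167 to 10168042 per WT library, and 10515121 to 11185381 per AMPK KO library. The ribosomal RNA precursor Rn45s took 20.7% to 24.9% of them in WT but 8.48% to 10.8% in AMPK KO. Prkaa1 itself was at 4.64, 5.24 and 4.86 in WT and at 4.08, 4.72 and 4.67 in AMPK KO, a difference of -0.43 with an adjusted p of 0.357, and whether the 3′ reads cover the deleted part was not tested. Xist, made from the inactive X chromosome, was at 0.93 to 2.16 in WT and at 7.55 to 7.92 in AMPK KO, while the Y-linked Ddx3y was at 8.44 to 8.53 in WT and at 6.93 to 7.28 in AMPK KO, and the Y-linked Kdm5d and Eif2s3y fell by 1.42 and 1.06. Sex makeup and genotype cannot be told apart here. Summed over 15 macrophage and monocyte markers, the normalized level was 627 to 698 in WT and 1026 to 1936 in AMPK KO. All 15 differences were positive, and none of the 15 was at 0 throughout. Of them 7 were called higher, Cd14 by 1.87, C1qa by 1.85, C1qc by 1.51, C1qb by 1.5, Cd68 by 1.10, Csf1r by 0.97 and Apoe by 0.82. Over all genes tested, 51.2% of differences were positive, 2.54% were called higher and 3.1% lower. The plasma cell gene Jchain rose by 2.60. Of 9 neutrophil markers tested, 7 had negative and 2 positive differences, and Ngp and Ltf were called lower, by 1.53 and 1.54. No marker of B cells, CD8 T cells, NK cells or regulatory T cells was called by limma. The methods of the study isolate CD4 T cells with magnetic beads or a cell sorter, and transcripts of other cell types were present after this step. Cd4 was at 6.72, 6.83 and 6.53 in WT and 6.55, 6.31 and 6.14 in AMPK KO, whereas Cd8b1, a chain of the CD8 receptor, was at 7.17, 7.61 and 7.58 in WT and 7.59, 7.98 and 7.92 in AMPK KO. Cd8b1 was thus above Cd4 in each library on the scale of 3′-end reads. Cd8a was at 6.48 to 6.86 in WT and 6.95 to 7.08 in AMPK KO, and the sum of both CD8 markers was 231 to 305 in WT and 321 to 376 in AMPK KO. Leaving out WT sample 1 ended the calls of C1qb, Csf1r, Apoe, Ltf, Cd3g, Cd3e, Cd28, Thy1, Kdm5d and Eif2s3y (adjusted p 0.054 to 0.245). All of these but C1qb and Cd3g were also lost without WT sample 3 (0.0942 to 0.192) and without AMPK KO sample 1 (0.0689 to 0.238). Csf1r, Apoe, Ltf, Thy1, Kdm5d and Eif2s3y were lost without WT sample 2 as well (0.0507 to 0.0862), and Cd3e and Cd28 without AMPK KO sample 3 (0.0692 and 0.0626). Of 14 T cell markers tested, Cd3g, Cd3e and Cd28 were called lower and Thy1 higher, and the sum was 3576 to 3761 in WT and 2909 to 3465 in AMPK KO. Their part in the results below was not tested. In bulk RNA, fewer cells of a type and less RNA per cell cannot be told apart.

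Of the 9 genes, 2 passed the test, Stat4 and Socs1, and both rose in AMPK KO. Across all genes tested, 5.65% were called, 2.54% higher and 3.1% lower. The groups did not overlap for 2 of the 9 genes, Stat4 and Stat6, against 25.6% of all genes. Of the 9 differences, 6 were positive and 3 negative, with a median of 0.20 against 0.02 over all genes. The direction of calls depends on scaling: 45.1% of calls were higher with the deposited values, 32.5% after scaling to reads outside Rn45s and 71.4% with voom on recovered reads, which moved the median of all genes to 0.16. Stat4 and Socs1 were called higher under each of these scalings.

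**Figure D1:**
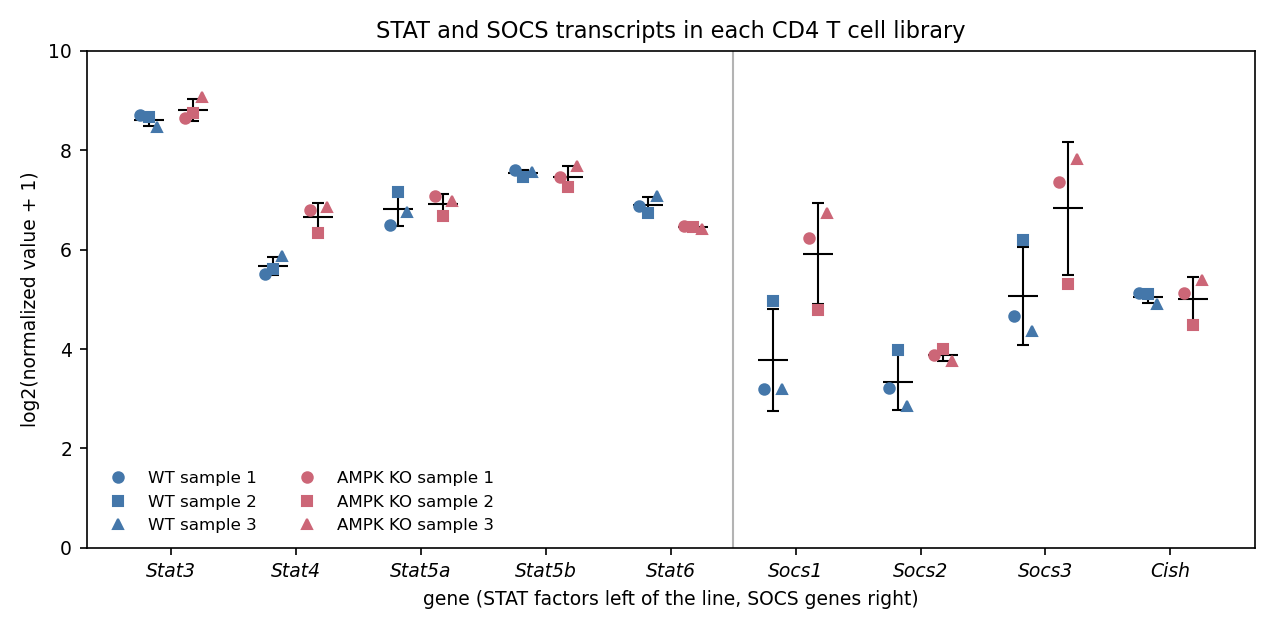
Level of each STAT and SOCS gene in each library, as log2(normalized value + 1). Blue symbols are WT and red symbols AMPK KO, with the symbol shape giving the sample number, and bars are the mean and SD of 3 samples. The 3 AMPK KO samples lie above all WT samples for Stat4 and below them for Stat6, and samples of Socs1 and Socs3 spread most widely within each group.

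The STAT factors are described in the order of the cytokines they serve. Stat4 (chr1:51987148-52107189, plus strand, GRCm38), the factor that carries the IL-12 signal towards interferon-γ production, was at 5.51, 5.62 and 5.86 in WT and at 6.79, 6.33 and 6.85 in AMPK KO. Every AMPK KO sample was above every WT sample. Its mean rose from 5.66 ± 0.18 (SD, n = 3) to 6.66 ± 0.29 (SD, n = 3), by 0.99 with an SE of 0.19, a 1.99-fold difference, and the adjusted p from limma was 0.00707. The reads behind these values numbered 410 to 1363 per library. Without each library in turn the difference was 0.90 to 1.16 with adjusted p of 0.000446 to 0.0697, and the call was lost without WT sample 1 (0.92, adjusted p 0.0697) and without AMPK KO sample 1 (0.93, adjusted p 0.0623). The call was also lost in a limma fit with a block for the sample number (adjusted p 0.0588). An exact permutation test gave p = 0.1, the smallest that 3 against 3 samples allow. The 3′ end of Stat4 lies within Gm28177, an overlapping gene on the same strand. Whether the reads of Stat4 include some from Gm28177 was not tested.

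Stat6 (chr10:127642986-127660957, plus strand), the factor of the IL-4 response, was at 6.87, 6.74 and 7.07 in WT and at 6.48, 6.45 and 6.42 in AMPK KO. All 3 AMPK KO samples were below all WT samples. The difference was -0.44 with an SE of 0.15 and a 95% interval of -0.77 to -0.12, but the adjusted p was 0.105, and Stat6 did not pass the test. Between 929 and 1183 reads per library lay behind it. Stat6 shares 40 bases at its 3′ end with Nab2, a repressor of EGR factors on the opposite strand. Nab2 was at 6.07, 6.21 and 6.41 in WT and 5.74, 5.81 and 5.65 in AMPK KO, a difference of -0.50 with an adjusted p of 0.103. Whether reads were counted by strand is not given in the sources used here, so the values of these neighbours may share reads.

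Stat3 (chr11:100885098-100939540, minus strand), which serves IL-6 and IL-21, had the highest level of the 9 genes in both groups. It was at 8.72, 8.66 and 8.46 in WT and at 8.64, 8.74 and 9.06 in AMPK KO, and the groups overlapped. The difference of 0.20 had an interval of -0.12 to 0.52 and an adjusted p of 0.468. This interval leaves room for a change in either direction. Without each library in turn the difference was 0.08 to 0.29.

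Stat5a and Stat5b, which share IL-2 and IL-7 signalling, lie beside each other and beside Stat3 on chromosome 11, in a block of 158810 bases. Stat5a (chr11:100859351-100885169, plus strand) was at 6.50, 7.16 and 6.77 in WT and at 7.08, 6.68 and 6.97 in AMPK KO. Its difference was 0.10, with an interval of -0.29 to 0.49 and an adjusted p of 0.803. Stat5b (chr11:100780731-100850724, minus strand) was at 7.60, 7.47 and 7.55 in WT and at 7.47, 7.26 and 7.67 in AMPK KO. Its difference of -0.07 had an interval of -0.39 to 0.25 and an adjusted p of 0.830. The groups overlapped for both genes. Stat5a also shares 72 bases at its 3′ end with Stat3, on the opposite strand.

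Among the feedback genes, those with STAT-type motifs near the start are shown with their sequence, because STAT dimers bind the palindrome TTCNNNGAA. RefSeq promoter windows of GRCm38.p6, from 250 bases before to 50 after the start, were found for 8 of the 9 genes. Capitals mark the match, and each lies on the strand of the gene. In Socs3 the match begins 154 bases before the start, and in Cish the matches begin at the start and 11 bases after it. The start here is that of RefSeq, and these matches lie within the GENCODE spans of Socs3 and Cish given below.
Socs3 (chr11:117969502-117969530, minus strand): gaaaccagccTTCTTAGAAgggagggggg
Cish (chr9:107296649-107296677, plus strand): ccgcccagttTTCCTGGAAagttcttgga
Cish (chr9:107296660-107296688, plus strand): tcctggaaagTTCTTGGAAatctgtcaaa
The motif reads the same on both strands and occurs in 8.30% of 32851 windows. Its stricter form TTCCNGGAA, a subset of the same matches, occurs in 1.15% and is present in the Cish match at the start. A form with 4 free bases in the middle occurs in 6.95% of windows and in none of these genes. The windows of Socs1 and of the 5 STAT genes held none of these forms, and Socs2 had no window.

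Socs1 (chr16:10782240-10785536, minus strand), an inhibitor of Janus kinases that limits interferon-γ signalling, was at 3.19, 4.97 and 3.19 in WT and at 6.22, 4.78 and 6.74 in AMPK KO. WT sample 2 stood above AMPK KO sample 2, so the groups overlapped, while AMPK KO samples 1 and 3 lay above all WT samples. The mean rose from 3.78 ± 1.03 (SD, n = 3) to 5.91 ± 1.02 (SD, n = 3), by 2.13 with an SE of 0.48, a 4.37-fold difference, with an adjusted p of 0.0196. The reads were 75, 303 and 72 in WT and 874, 284 and 1256 in AMPK KO. The exact permutation test gave p = 0.2. The highest adjusted p over all alternatives was 0.192, with robust estimation of the spread. The lowest, 6.6e-06, came from a term setting WT samples 1 and 3 and AMPK KO sample 2 against the rest. That division was taken from these libraries, so its p is too small. Leaving out a library gave differences of 1.72 to 2.72 with adjusted p of 0.00038 to 0.146, and the call was lost without WT sample 1 (1.83, adjusted p 0.146), WT sample 3 (1.83, 0.129) or AMPK KO sample 1 (1.97, 0.0986).

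Socs3 (chr11:117966079-117970047, minus strand), an inhibitor of gp130 receptors and of STAT3 signalling, was at 4.66, 6.19 and 4.36 in WT and at 7.36, 5.31 and 7.82 in AMPK KO. The same libraries stood high and low as for Socs1: WT sample 2 above the other WT samples, and AMPK KO sample 2 below the other AMPK KO samples and below WT sample 2. The difference of 1.76 had an SE of 0.53 and an interval of 0.64 to 2.88, with an adjusted p of 0.0628, so Socs3 did not pass the test. Without WT sample 2 it was 2.32 (adjusted p 0.0170) and without AMPK KO sample 2 it was 2.52 (adjusted p 0.000253), and both passed. Without each of the other 4 libraries it was 1.26 to 1.55 and did not pass, with adjusted p of 0.122 (without AMPK KO sample 3) to 0.283 (without WT sample 1). It did not pass with robust estimation of the spread (adjusted p 0.376). Its reads ranged from 173 to 2674.

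Cish (chr9:107296026-107302784, plus strand), a feedback gene of STAT5, was at 5.12, 5.11 and 4.91 in WT and at 5.13, 4.49 and 5.38 in AMPK KO. The groups overlapped, and the interval of the difference was -0.56 to 0.47 with an adjusted p of 0.938. Socs2 (chr10:95385362-95417180, minus strand), a regulator of growth hormone signalling, was at 3.21, 3.97 and 2.85 in WT and at 3.88, 4.01 and 3.76 in AMPK KO. The difference of 0.54 had an interval of -0.16 to 1.24 and an adjusted p of 0.371, and was 0.29 to 0.85 without each library in turn. Socs2 had the lowest level of the 9 genes, with 55 to 162 reads.

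**Figure D2:**
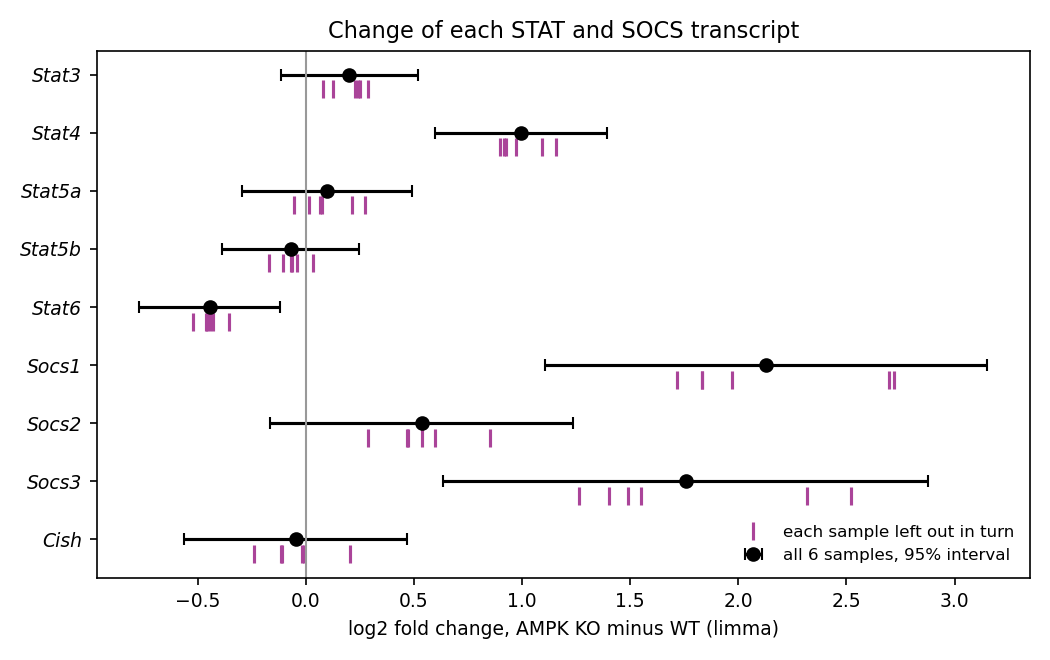
Difference between AMPK KO and WT for each gene on the log2 scale, from limma. Black points and bars are the values with all 6 samples and their 95% intervals, and purple ticks are the values without each sample in turn. Ticks of Stat3, Stat4, Socs1, Socs2 and Socs3 all lie above 0 and those of Stat6 below it, whereas those of Stat5a, Stat5b and Cish lie on both sides.

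By mean level in WT, the order was Stat3, Stat5b, Stat6, Stat5a, Stat4, Socs3, Cish, Socs1 and Socs2. Stat3 and Stat5b stood apart from their neighbours, as did Stat5a from Stat4, and the samples of the other neighbours overlapped. In AMPK KO the order was Stat3, Stat5b, Stat5a, Socs3, Stat4, Stat6, Socs1, Cish and Socs2, and there Stat3, Stat5b and Cish each stood apart from the next gene. Summed over linear normalized values, the 4 SOCS genes made up 7.94%, 14.7% and 7.0% of the 9-gene sum in WT, against 23.9%, 10.7% and 26.6% in AMPK KO. AMPK KO sample 2 lay within the WT range on this share. These levels are of 3′ reads and are not divided by gene length.

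Differences between the log2 values of 2 genes of the same library depend little on its scaling where levels are high, and more where they are low because of the added 1. They are called ratios here, and 8 were compared with exact two-sided permutation tests. Socs1 to Stat6 was higher in AMPK KO by 2.57, with no overlap between groups (exact permutation p = 0.1, adjusted over the 8 ratios p = 0.4). Socs1 to Socs3 was higher by 0.37, also with no overlap (exact p = 0.1, adjusted p = 0.4). With a pseudocount of 5, however, its difference was 0.19 (exact p = 0.5), and without AMPK KO sample 2 it was 0.18. No ratio passed, since 0.1 is the smallest p this design allows. Socs3 to Stat3 differed by 1.56 with overlap (exact p = 0.2). Stat5a to Stat5b differed by 0.17 and Cish to Stat5b by 0.02, with exact p of 0.6 and 0.8.

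**Figure D3:**
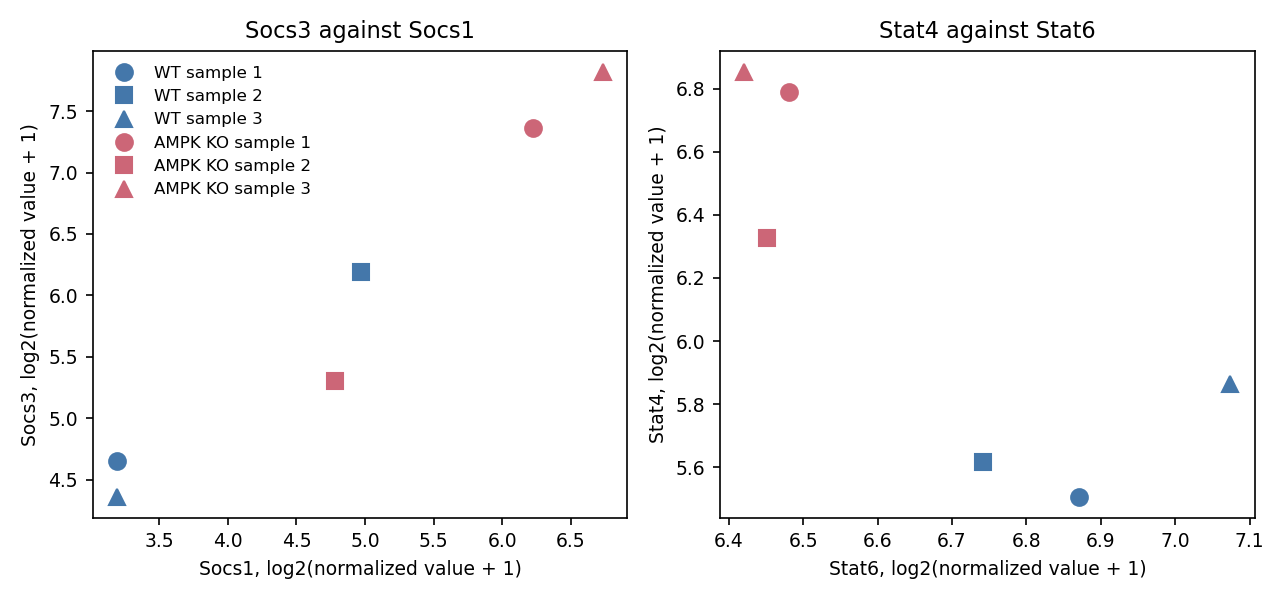
Levels of Socs3 against Socs1 (left) and of Stat4 against Stat6 (right) in each library, as log2(normalized value + 1), with blue for WT, red for AMPK KO and the shape giving the sample number. Axes do not start at 0. WT sample 2 and AMPK KO sample 2 lie next to each other in the left plot, whereas the groups are apart in the right plot.

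The genes around the STAT and SOCS pathway were counted by role, and 7 of the 76 tested, 9.21%, were called, 2 higher and 5 lower. Over all genes tested, 5.65% were called, 2.54% higher and 3.1% lower. Without WT sample 1 or without WT sample 3, 0 of these list genes were called. The median difference of the 76 was 0.02, as over all genes. Among the 5 cytokine ligands tested, Ifng, the gene of interferon-γ and a STAT4 target, rose by 1.70 (adjusted p 0.0231), from 2.13, 4.10 and 3.45 in WT to 4.91, 5.17 and 4.71 in AMPK KO. Its 31 to 376 reads separate the groups without overlap. NK cells also make interferon-γ, and the summed level of 7 NK cell markers was 57.1 to 79.3 in WT and 88.5 to 111 in AMPK KO, and their part was not tested. Of the 6 tested, 5 had positive differences, Eomes with 0.65 (adjusted p 0.0569) and Klre1 with 1.03 (adjusted p 0.233) among them, and Prf1 had -1.09 (adjusted p 0.181). CD8 T cells make interferon-γ too, and their markers were given above. The Ifng call was lost without WT sample 1 (1.15, adjusted p 0.0873), WT sample 3 (1.82, adjusted p 0.0804) or AMPK KO sample 1 (1.71, adjusted p 0.0938). It was also lost with no filter on low values and with a block for the sample number. The other 12 of 17 ligands were under the filter, Il2 with 3 to 8 reads per library and Il4 listed at 0 in all.

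Of 19 receptor genes tested, Il2rb, the signalling chain of the IL-2 and IL-15 receptors, rose by 0.67 (adjusted p 0.0126) and Il7r, the IL-7 receptor chain, fell by 0.68 (adjusted p 0.00976). Il2rb was at 7.51 to 7.72 in WT and 8.18 to 8.43 in AMPK KO, and Il7r at 9.24 to 9.52 and 8.65 to 8.75. Both calls were lost without WT sample 1 (Il2rb adjusted p 0.0983, Il7r 0.0907), WT sample 3 (0.0761 and 0.0738) or AMPK KO sample 1 (0.0514 and 0.0679). Il4ra, the receptor chain with the highest level, differed by -0.29 (adjusted p 0.306), and Il12rb2, the chain through which IL-12 reaches STAT4, was at 1.13 to 2.24 in WT and 0.46 to 2.10 in AMPK KO. Il9r had the largest difference of the receptor genes, 0.85 (adjusted p 0.345). Jak1 was the 1 Janus kinase of 4 called, and it fell by 0.58 (adjusted p 0.0383). Its call was lost without WT sample 1, WT sample 3, AMPK KO sample 1 or AMPK KO sample 3 (adjusted p 0.197, 0.186, 0.190 and 0.116). Jak1 had the highest level of the 4, and the other 3 had differences of 0.25 to 0.29.

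Of 12 inhibitors of the pathway other than SOCS genes, the ubiquitin ligases Cbl and Cblb, which restrain T cell receptor signals, fell by 0.91 (adjusted p 0.0100) and 0.92 (adjusted p 0.0251). Without WT sample 1 the adjusted p was 0.0833 for Cbl and 0.151 for Cblb, without WT sample 3 it was 0.0598 and 0.131, and without AMPK KO sample 1 Cblb was at 0.0846. Ptprc, the phosphatase CD45 and the highest of these inhibitors, differed by -0.36 (adjusted p 0.156). None of the 6 other STAT and SOCS genes was called, and the highest, Socs7, differed by 0.25 (adjusted p 0.537) and Socs5 by -0.54 (adjusted p 0.548). At an unadjusted p under 0.05 the count for these 6 was also 0 by limma, against 21.3% of all genes tested. Of 15 STAT5 targets, Bcl2, which protects against cell death, fell by 0.67 (adjusted p 0.0206), a call lost without WT sample 1 (adjusted p 0.108) or WT sample 3 (adjusted p 0.124). Pim1, the highest of the STAT5 targets, differed by -0.02 and Gzmb by 1.14 (adjusted p 0.193). Of 12 STAT3 targets tested, 0 were called by limma and 1 had an unadjusted p under 0.05. Their differences were positive for 11 of 12 with the deposited values, where 51.2% of all genes were, but for 8 of 12 after scaling to reads outside Rn45s, where 45.9% of all genes were. With quantile normalization and with voom it was 12 of 12, beside 48.8% and 63.2% of all genes. Among them Junb, the highest, differed by 0.29 and Maf by 0.46 (adjusted p 0.144). Of 11 STAT4 and STAT6 targets tested, Ifng was the only call, and Tbx21, the TH1 factor, differed by 0.35 (adjusted p 0.549) and Gata3, the TH2 factor, by -0.26 (adjusted p 0.404).

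**Figure D4:**
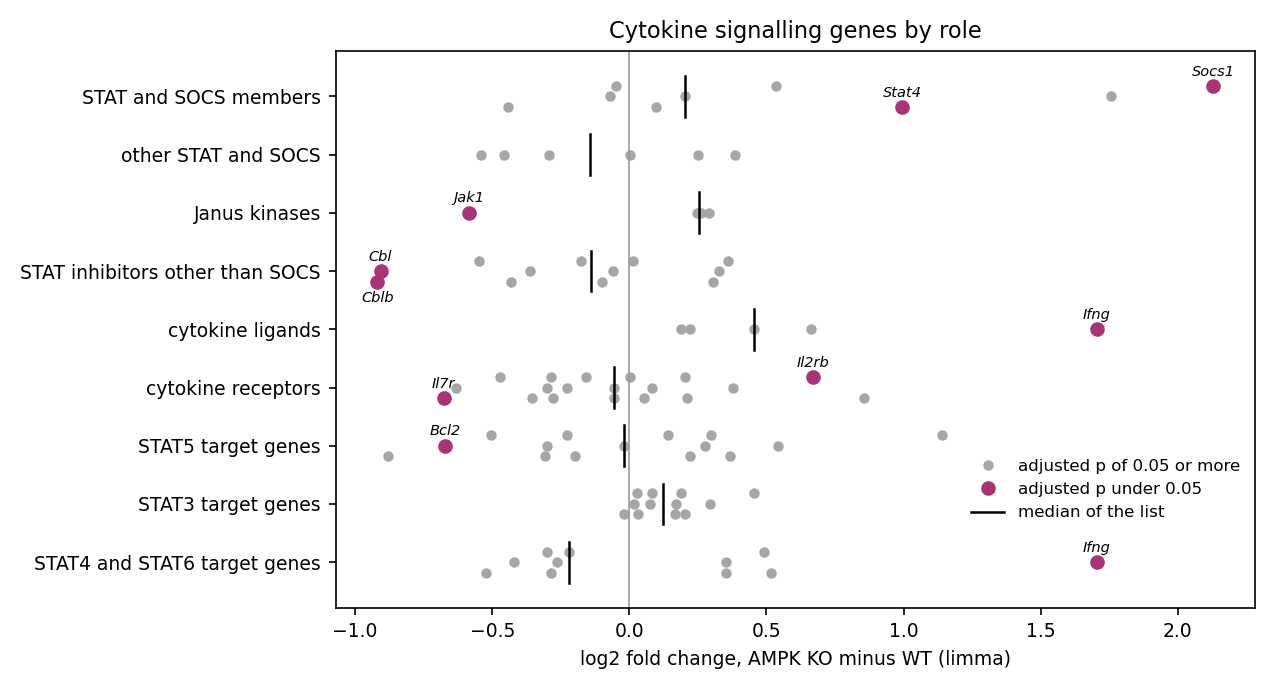
Difference between AMPK KO and WT on the log2 scale for the STAT and SOCS members and the genes tested in each pathway list, from limma. Marker and activation lists are not shown. Each point is a gene, purple where the adjusted p was under 0.05, and black lines are list medians. Socs1, Ifng and Stat4 are the called genes farthest to the right, and Cbl, Cblb, Il7r, Bcl2 and Jak1 lie to the left.

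Genes that mark stimulation moved in both directions, more of them lower. Of 15 activation genes, 11 had negative and 4 positive differences, with a median of -0.35 against 0.02 over all genes. By limma 2 were called higher, Cd44 by 1.17 and Tnfrsf9 by 0.72. Called lower were 4, Egr3, Egr1, Nfkbid and Cd40lg, by 1.34, 0.76, 0.74 and 1.76. Over all genes tested, 2.54% were called higher and 3.1% lower. Without WT sample 1, the calls of Cd44 and Cd40lg (both adjusted p 0.0528), Egr1 (0.0660), Nfkbid (0.104) and Tnfrsf9 (0.128) were lost. Nfkbid and Tnfrsf9 were also lost without WT sample 3 (0.106 and 0.102) and without AMPK KO sample 1 (0.0882 and 0.0805), whereas Egr3 passed without each library in turn. Il2ra, a STAT5 target and activation gene, was at 4.12 to 5.04 in WT and 3.99 to 4.98 in AMPK KO.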

How the data were processed

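RNA of 6 samples was sequenced as QuantSeq 3′ libraries. The authors deposited log2 values of normalized read counts plus 1, for genes listed by symbol. The study names TMM and CPM normalization in a figure legend, and the submitters' processing notes name Bowtie2, bedtools and mm10, without versions. The annotation and the use of strand are not given in the sources used here. Up to 100 reads, 100% of values lay within 0.1 of a whole read, and reads were recovered on this basis (no molecular identifiers, so they cover counting error only).

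Values were tested as deposited with limma 3.58.1 (eBayes with a trend, genotype only) in R 4.3.3, two-sided, over 11279 genes with a mean of at least 1. Single genes were also tested by exact permutation. The script was tested on simulated data. Members and lists were chosen with earlier results of these data known. Named genes were the members, every list gene past the threshold, the highest and the most changed tested gene of a list, and Prkaa1. For marker lists with no call, only NK cell and CD8 T cell genes are named, and the highest gene is not named for T cells and neutrophils. A few more, such as Il2, Tbx21 and Nab2, were named after their values were seen. Alternatives were other filters, scalings, pseudocount and spread estimates, voom on recovered reads, a replicate block, a term that divides the libraries (WT 1, WT 3 and AMPK KO 2 against the rest), and leaving out each library. Positions came from GENCODE M21 and promoters from RefSeq. Python 3.11.15 was used for tables and plots.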

Additional observations from a re-analysis of the deposited data

How the results depend on the processing

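Over 15 alternatives, 135 differences of the 9 genes were recomputed, of which 117 kept their direction and side of the threshold, 9 lost and 3 gained significance and 6 changed sign. The number of genes called, 637, became 308 with no filter, 1428 with a term for the library division, 102 with the replicate block and 127 to 1246 without each library in turn, with 0 to 3 members called. Called members numbered 1 with no filter (Socs1 2.13, adjusted p 0.103) and 1 with robust estimation (Socs1 2.13, adjusted p 0.192), and 0 with the replicate block (Stat4 0.99, adjusted p 0.0588, Socs1 2.13, adjusted p 0.128, and Socs3 1.76, adjusted p 0.222). Called genes in the pathway lists were 0 to 9 without each library. The division term, whose p-values are too small because the division came from these libraries, gave Socs3 1.10 (adjusted p 5.03e-05) and Stat5a -0.047. With voom, Stat5b was 0.077 and Cish 0.10. Without each library, the difference was 0.90 to 1.16 for Stat4, -0.054 to 0.27 for Stat5a, -0.17 to 0.033 for Stat5b, 1.72 to 2.72 for Socs1, 1.26 to 2.52 for Socs3 and -0.24 to 0.21 for Cish. The ratio of Stat5a to Stat5b was -0.014 to 0.38, of Cish to Stat5a -0.31 to 0.045 and of Cish to Stat5b -0.066 to 0.17. The cause was not tested.

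Samples with the same number did not deviate together (r = -0.082, -0.321 and -0.155 over 11279 genes). The labels do not say whether a number marks a shared batch or litter. With 3 samples per group the deviations depend on each other, so this check cannot settle it. The block changed the count of calls from 637 to 102. Of the 31 other list genes called, the block kept 10 (C1qa, C1qb, C1qc, Cd14, Cd40lg, Ddx3y, Egr3, Jchain, Ngp and Xist), with adjusted p of 0.0585 to 0.191 for the other 21, Cd68 (0.0664) among them. With no filter 14 were lost (adjusted p up to 0.147), Ifng, Jak1, Cblb, Bcl2, Csf1r and Apoe among them. With voom 8 were lost, Bcl2, Cblb, Jak1, Cd28, Cd3e, Ltf, Kdm5d and Eif2s3y (0.0572 to 0.121). Apoe was lost with robust estimation (0.0772) and Thy1 with scaling outside Rn45s (0.0707). The lowest reads were 55 for Socs2 and 72 for Socs1, and what depth limits was not tested.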

Other observations

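For the genes that passed the test or whose groups did not overlap, the tested genes with the nearest pattern were found over the 6 samples, as the root mean square difference of centred log2 values. For Stat4 these were Sc5d (0.0744), Abcb1a (0.0947) and Ube2d1 (0.121). For Stat6 they were Mdm4 (0.0281), Ube3b (0.0348) and Gigyf1 (0.0514). For Socs1 they were Gm10012 (0.253), Snhg8 (0.258) and F2r (0.311), and among all genes Socs3 stood at rank 3 with 0.283. These values are a description over 6 libraries, in which the groups also differ in depth.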
